A study of Mus musculus with 2 samples.

Results

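The genes of the Polycomb repressive complexes and of their partner Jarid2 were examined for binding by Tcf3 in mouse embryonic stem cells. The 10 genes were Ezh2, Eed, Suz12, Jarid2, Rnf2, Ring1, Bmi1, Cbx2, Cbx7 and Cbx8, and they were chosen by name. Their probes were all non-control spots that the array annotation names for one of these genes, or for a hyphen-joined pair that holds one, and 0 such pairs were found. All 10 genes were present, among 17029 genes named on the arrays, with 303 of 474380 probes. Ezh2, Eed, Rnf2 and Bmi1 lay on array 1, and Suz12, Jarid2, Ring1, Cbx2, Cbx7 and Cbx8 on array 2.

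The samples were DNA immunoprecipitated from cross-linked chromatin and input DNA of the same kind of cells, E14 mouse embryonic stem cells grown without feeder cells, with no treatment or genetic change given in the labels. Immunoprecipitate carried the dye Cy5 and input the dye Cy3, and they were hybridised in competition to 2 Agilent promoter arrays that carry different genes. Each gene was therefore measured once, with no replicate and no control immunoprecipitation, and no test between samples exists. The labels list several antibodies and do not tie one to the arrays, so that Tcf3 rests on the sample titles. They also do not say whether both arrays received the same immunoprecipitate, so that a difference between arrays and one between preparations cannot be told apart. The arrays measure DNA and not transcripts, so the cell type could not be checked by marker expression.

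Polycomb proteins form complexes that keep developmental genes silent. Polycomb repressive complex 2 (PRC2) methylates lysine 27 of histone H3 through the enzyme Ezh2, which needs Eed and Suz12, and Jarid2 is a cofactor that helps recruit PRC2 in embryonic stem cells. Polycomb repressive complex 1 (PRC1) ubiquitinates histone H2A through the ring finger proteins Rnf2 (Ring1b) and Ring1, with Bmi1 as a partner, and its Cbx subunits read the mark of PRC2. Tcf3 (current symbol Tcf7l1) belongs to the Tcf/Lef transcription factors of Wnt signalling and represses many genes in embryonic stem cells. Which of these promoters Tcf3 occupied is the question that the comparison of immunoprecipitate with input addresses.

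Values are log2 ratios of immunoprecipitate over input, centred on the median of each array, and a set mean is the average over a probe and the closest probe to its left and right, up to 1000 bp away. The SD beside a set mean is over the 2 or 3 probes of that set and describes scatter along the DNA, not error between experiments. A gene was called when a set mean and single probes in the set were high against the scatter of the array. With all spots a set of 3 probes had to exceed 1.47 on array 1 and 1.69 on array 2. On array 1 the immunoprecipitate was well above background at 69.1% of probes and the input at 97.8%, and on array 2 these shares were 48.1% and 92.0%. The scanner software had written a surrogate value in place of signals not above background. Of the 303 probes of the 10 genes, 182 were measured in both channels and 121 held a surrogate. The measured probes had a median GC content of 45.1% and the surrogate probes one of 36.7%. Calls were therefore made 3 times, using all spots, then measured spots only, and then measured spots from which the median log2 ratio at each GC content had been taken off.

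Measured probes of these genes with a log2 ratio above 2 carry most of what follows, and their sequences are given here in plus orientation of the array. All letters are lower case because 0 of them holds the Tcf motif described further on. The sources used here do not name the genome build of these positions.
Suz12 chr11:80074802-80074846: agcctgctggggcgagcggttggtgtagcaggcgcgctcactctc
Jarid2 chr13:44178767-44178824: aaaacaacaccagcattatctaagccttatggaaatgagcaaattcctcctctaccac
Jarid2 chr13:44180054-44180098: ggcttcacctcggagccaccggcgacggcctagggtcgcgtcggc
Jarid2 chr13:44180496-44180540: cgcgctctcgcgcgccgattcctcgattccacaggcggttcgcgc
Rnf2 chr1:151433462-151433506: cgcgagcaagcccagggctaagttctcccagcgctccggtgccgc
Cbx7 chr15:80016804-80016848: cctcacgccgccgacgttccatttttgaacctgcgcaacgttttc
Cbx7 chr15:80018984-80019031: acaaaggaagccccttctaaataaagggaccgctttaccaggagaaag
Cbx8 chr11:119150471-119150515: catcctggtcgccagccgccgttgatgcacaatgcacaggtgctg
Cbx8 chr11:119150925-119150969: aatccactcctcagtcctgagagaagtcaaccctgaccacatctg
Cbx8 chr11:119154059-119154103: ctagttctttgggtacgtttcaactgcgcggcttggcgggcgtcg

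Jarid2 was the gene with the highest set mean of the 10, a 4.24-fold excess of immunoprecipitate over input, and the only one called with all spots. Cbx8 was called besides it with measured spots. After the GC trend was subtracted, Jarid2 was not called, and Cbx7 and Cbx8 were. Ezh2, Eed, Suz12, Rnf2, Ring1, Bmi1 and Cbx2 were called in none of these 3 settings. Of the 10 genes, 3 were called in at least 1 setting and 0 in all 3, against 23.7% and 4.71% of the 16318 genes tested in each setting.

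These counts stood close to those over all genes. With all spots 1 of 10 genes was called, against 13.0% of all genes tested. With measured spots 2 of 10 were called, against 13.7%, and with the GC trend subtracted 2 of 10, against 13.3%. By array, 0 of 4 genes on array 1 were called in each setting, against 22.2%, 16.2% and 19.0% of all genes there. On array 2 the count was 1 of 6 with all spots, against 3.59%, then 2 of 6 with measured spots, against 11.0%, and 2 of 6 with the GC trend subtracted, against 7.33%. The median of the highest set means was 1.32 over the 10 genes and 1.15 over all genes with at least 3 probes. With measured spots these medians were 1.35 for the 10 genes and 0.98 for all genes, and with the GC trend subtracted 0.75 and 0.86.

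**Figure D1:**
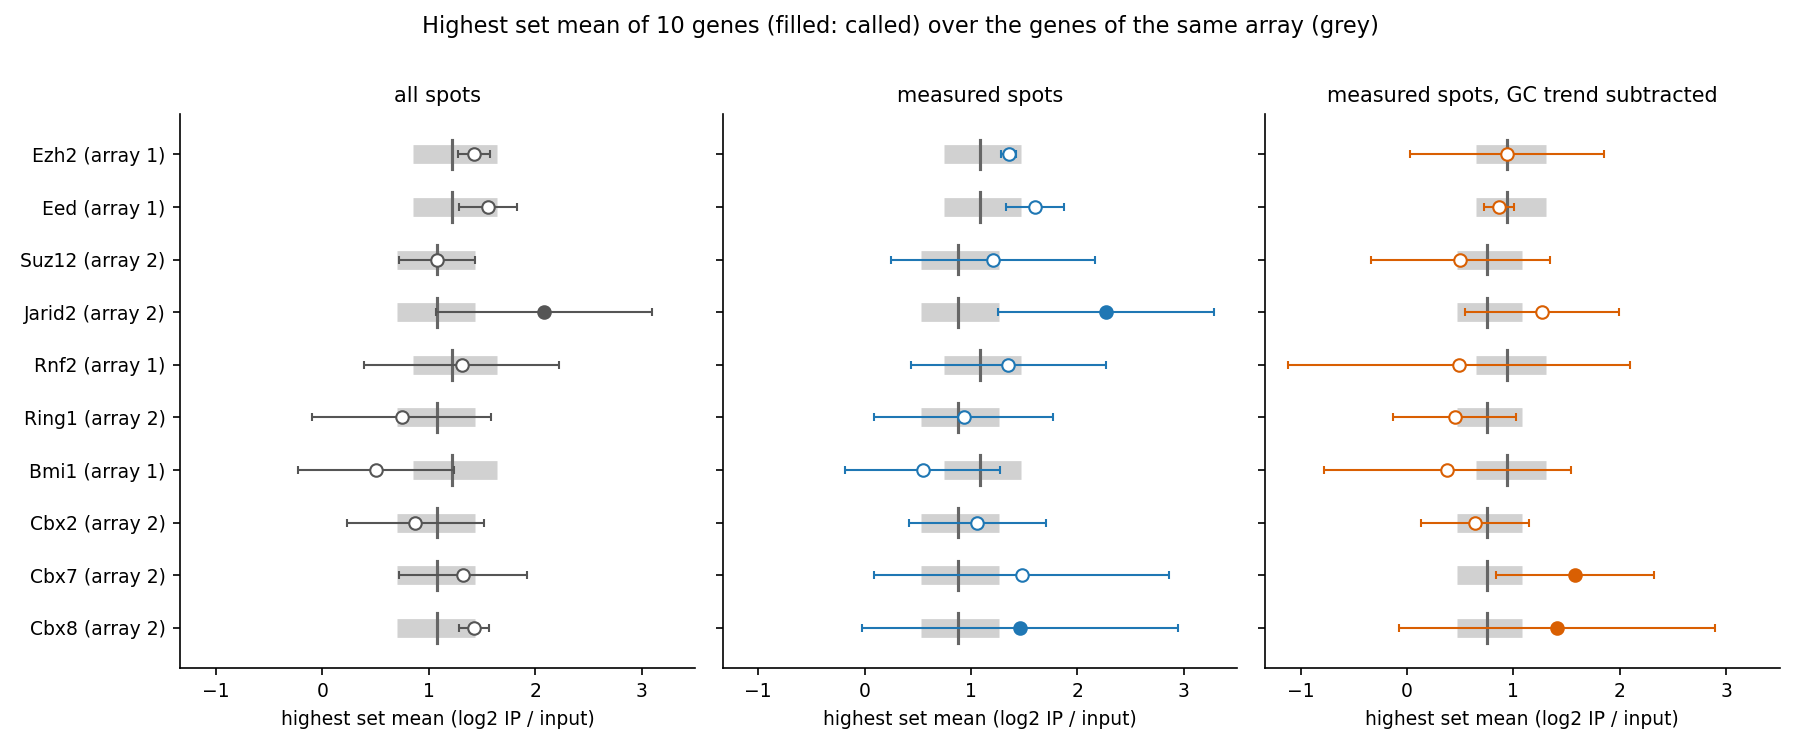
The highest set mean of each of the 10 genes is plotted in log2 units for each setting, with bars for the SD among its probes and filled circles where the gene was called. Grey bars run between the lower and upper quartile of all genes with at least 3 probes on the same array, with a line at their median, and Jarid2 stands at 2.08 with all spots and at 1.27 with the GC trend subtracted.

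Single probes gave a different picture on each array. On array 2, 9 of 191 probes of these genes (4.71%) exceeded 2, against 1.01% of the probes of all genes. On array 1 it was 2 of 112 (1.79%), against 4.31%. Above 1, with surrogates included, the order on each array was the other way. It was 20.5% of the probes of the 10 genes on array 1, against 16.1% for all genes, and 13.6% on array 2, against 17.6%. Over both arrays 16.2% exceeded 1, against 16.8%, and of the measured probes 20.3%, against 14.4%. Of the measured probes on array 2 alone 19.2% exceeded 1, against 13.7%, and on array 1 22.6%, against 14.8%. After GC subtraction from measured spots it was 18.3% on array 2, against 11.7%, but 11.3% on array 1, against 12.6%. Above 2 it was then 5% on array 2, against 1.83%, and 0% on array 1, against 2.71%. The 9 high probes on array 2 belonged to Jarid2, Suz12, Cbx7 and Cbx8, and the pair on array 1 to Rnf2, one of which was a surrogate. Of all 11 probes above 2, 2 had a neighbour above 1, against 57.9% of such probes over all genes. With measured spots 5 of 10 had one, against 44.6%.

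Positions relative to the gene's start were obtained for 8 of the 10 genes, from probes whose letters match a RefSeq promoter window (GRCm38.p6) exactly. Each window runs from 250 bases before the start to the 50 after it. Matches were found for 10890 genes in all. Of 4792 windows matched by several probes, 4764 gave the same start from each. The start of Jarid2 was placed at 44180857 on chromosome 13 and that of Cbx8 at 119149958 on chromosome 11, in the coordinates of the arrays. The starts of Ezh2 and Cbx8 rest on 1 matched probe each, so that this agreement does not cover them. Jarid2 has 2 windows, beginning at 44730524 and 44731021 in GRCm38.p6, and its distances are from the start of the first.

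**Figure D2:**
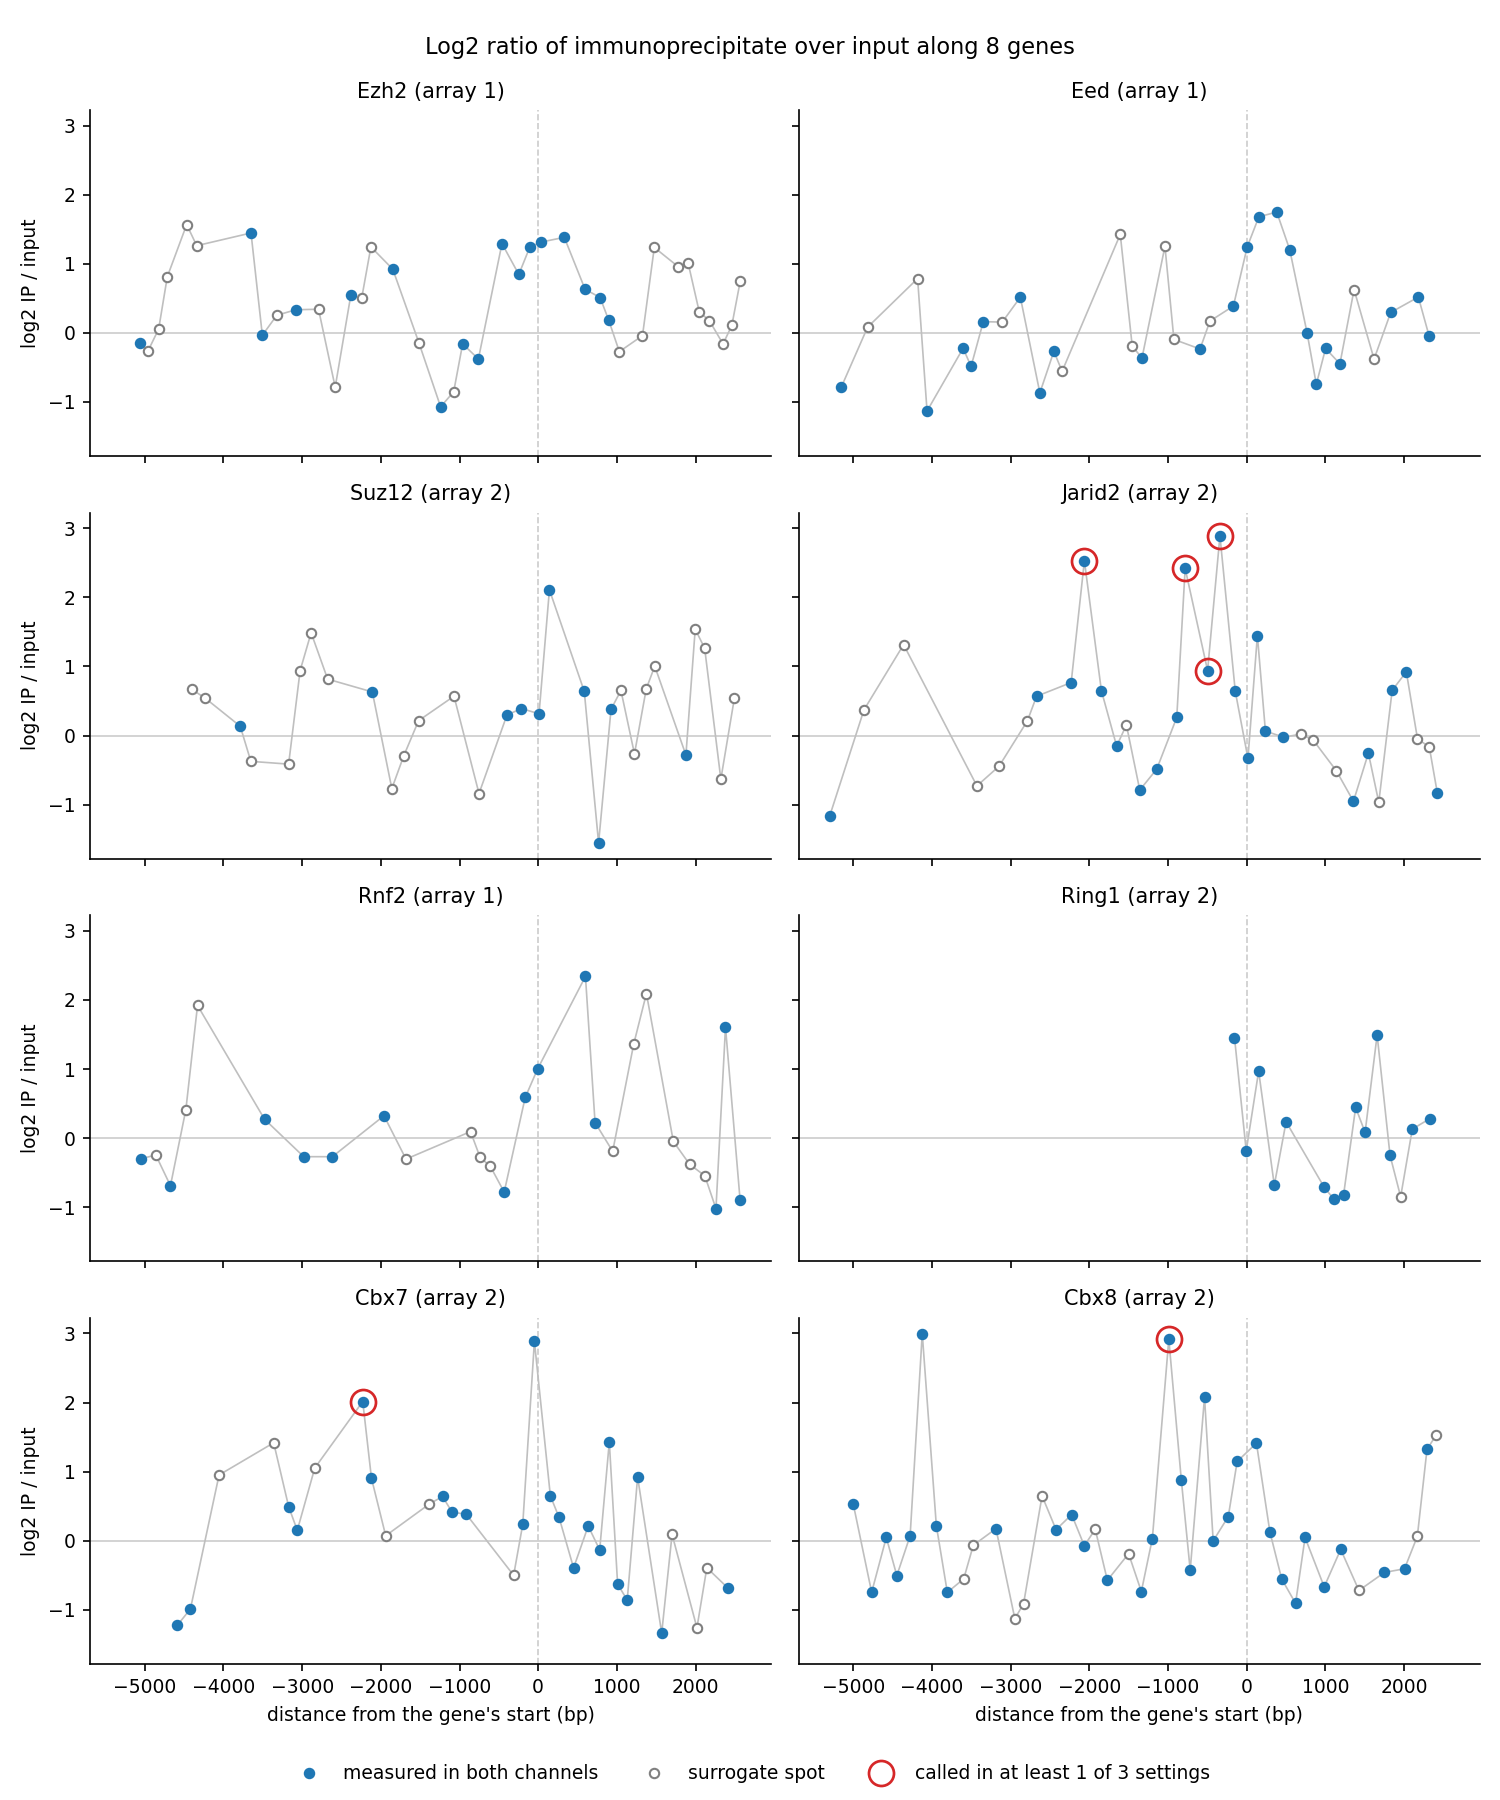
The log2 ratio of each probe is plotted against its distance from the start of the gene in bp, negative upstream, for the 8 genes with a matched start. Filled points were measured in both channels, open points hold a surrogate, and red rings mark probes called in at least 1 of 3 settings, which occur in Jarid2, Cbx7 and Cbx8 and not in the other panels.

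Ezh2, the histone methyltransferase of PRC2, had a flat stretch of moderate enrichment over its start. The 5 probes within 500 bp of the start were all measured and stood between 0.85 and 1.38, with a median of 1.29. Its 29 probes farther than 1000 bp away had a median of 0.30, and 7 of them were measured. The highest set of measured spots reached 1.35 ± 0.07 (SD, 3 probes; chromosome 6, 47631372 to 47631854), where the rule asked for 1.39. The rule also asked for 2 probes above 1.83 or 1 above 2.20. In this setting the probes of the set stood at 1.28, 1.36 and 1.42. With all spots the highest set lay far upstream at 1.43 ± 0.15 and held 2 surrogate spots among 3. The GC content of the measured set averaged 65.9%, and with the GC trend subtracted this set over the start stood at 0.27. The highest set mean of Ezh2 was then 0.94, beside a median of 0.94 over all genes of array 1. It came from 2 other probes, 3650 and 3506 bp before the start.

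Eed, the PRC2 subunit that binds methylated H3, showed the highest set mean of the 4 genes on array 1. Its probes at 8, 156, 383 and 548 bp after the start stood at 1.25, 1.68, 1.75 and 1.21. The flanking probes stood at 0.39, at 168 bp before the start, and at 0.00, at 769 bp after it. These 4 probes were higher than every other measured probe of the gene. Their highest set mean was 1.56 ± 0.27 (SD, 3 probes; chromosome 7, 85929006 to 85929426), a 2.95-fold excess that passed the bound of 1.47. It was not called, because 2 probes of the set had to exceed 1.85, or 1 probe 2.22. Of the genes of array 1, 28.9% had a higher set mean. With the GC trend subtracted this set stood at 0.69. The highest set of Eed was then the one centred 8 bp after the start, at 0.86, and 57.3% of the genes stood higher.

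The window at the start of Eed is shown because 2 of the probes lie in it, in capitals, at 0.39 upstream and at 1.25 over the start.
Eed chr7:89980927-89981226, GRCm38.p6, minus strand: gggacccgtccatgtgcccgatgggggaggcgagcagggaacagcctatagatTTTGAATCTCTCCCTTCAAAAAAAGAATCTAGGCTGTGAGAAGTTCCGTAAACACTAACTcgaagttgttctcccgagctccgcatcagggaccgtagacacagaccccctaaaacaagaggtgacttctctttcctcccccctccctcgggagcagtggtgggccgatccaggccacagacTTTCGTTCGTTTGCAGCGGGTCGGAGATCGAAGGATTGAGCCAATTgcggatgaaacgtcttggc

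Suz12, the PRC2 subunit that holds the complex together, was high at 1 probe only. That probe stood at 2.11, at 143 bp after the start, between neighbours at 0.31 and 0.64. Its immunoprecipitate signal was 3333 and its input signal 789 intensity units. The other probes within 500 bp of the start stood between 0.30 and 0.39. The highest set mean of measured spots was 1.20 ± 0.96 (SD, 3 probes), and only 10 of the 30 probes of Suz12 were measured. With all spots the highest set, at 1.08, consisted of 3 surrogates. With the GC trend subtracted the probe at 2.11 stood at 1.33. The highest set mean of Suz12 was then 0.50, and 72.5% of the genes of array 2 stood higher.

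Jarid2 was enriched upstream of its start. At 781, 496 and 339 bp before the start its probes stood at 2.42, 0.94 and 2.89, and these 3 gave a mean of 2.08 ± 1.02 (SD) over chromosome 13 from 44180054 to 44180540. Of the genes of array 2, 1.30% had a higher set mean with all spots, 1.49% with measured spots and 15.1% after GC subtraction. The probes on either side, at 888 and 144 bp before the start, stood at 0.26 and 0.64. Another probe, 2062 bp before the start, stood at 2.53 between neighbours at 0.77 and 0.65. All probes named here were measured in both channels.

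The Jarid2 probes at 2.42 and 2.89 had dim inputs and were rich in GC. Their immunoprecipitate signals were 1269 and 1119 and their input signals 242 and 154, and their GC contents were 75.6% and 71.1%. The probe at 2.53 gave 6303 for the immunoprecipitate and 1115 for the input, with a GC content of 39.7%. With measured spots 4 probes of Jarid2 were called, the 3 of the set and the one farther upstream, and the set mean was 2.27. With the GC trend subtracted the set stood at 1.27, above the bound of 1.21, but its probes then stood at 1.23, 0.56 and 2.01 and did not meet the conditions on single probes. The upstream probe then rose to 2.89 in a set with a mean of 1.18, below the bound.

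Rnf2 (Ring1b), the main ubiquitin ligase of PRC1, had 1 high measured probe, 601 bp after the start, at 2.34. The probe over the start stood at 1.00, the one 165 bp before it at 0.59, and the next probe downstream of the high one at 0.23. The first 3 of these, all measured, made up the highest set, with a mean of 1.31 ± 0.92 (SD, 3 probes), which was not called, and 44.0% of the genes of array 1 had a higher one. That probe had a GC content of 71.1% and stood at 1.02 with the GC trend subtracted. Rnf2 held a surrogate probe at 2.09, with a GC content of 26.7%, whose immunoprecipitate signal was not above background.

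Ring1, the paralogue of Rnf2, had 15 probes, of which 14 were measured, and its first probe lay 154 bp before the start, so that the region farther upstream was not covered. The probes at 154 and 5 bp before and 153 bp after the start stood at 1.46, -0.18 and 0.97. Their set mean was 0.75 ± 0.84, lower than that of 72.3% of the genes of array 2. Bmi1, the partner of the ring finger proteins, had the lowest set mean of the 10 genes, at 0.51 ± 0.73 (SD, 3 probes), and 92.9% of the genes of array 1 stood higher. Of its 13 probes, 9 were measured, and 2 exceeded 1, at 1.35 and 1.39, with neighbours at 0.14 or lower.

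Cbx2, Cbx7 and Cbx8 encode chromodomain subunits of PRC1, and Cbx2 and Cbx8 are neighbours on chromosome 11. Cbx2 was not called in any of the 3 settings. Its 39 probes had a median of -0.19, and the highest set was 0.87 ± 0.64 (SD, 3 probes; 119132444 to 119132885), with 1 probe at 1.60. Of these probes 2 exceeded 1, the other one being a surrogate at 1.04. With measured spots the set mean of Cbx2 was 1.06.

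Cbx7 had its highest probe over the promoter. The probe centred 48 bp before the start stood at 2.89, with an immunoprecipitate signal of 16216 and an input signal of 2239.5, and its GC content was 55.6%. Its neighbours stood at 0.24 upstream and 0.65 downstream, so that the set mean was 1.26 with all spots and 1.44 with measured spots. With measured spots this set passed the bound of 1.37, but neither neighbour was high enough for a call. With the GC trend subtracted the promoter probe stayed at 2.84 and was not called. The called probe of Cbx7 lay farther away, 2230 bp before the start, at 2.02 with all spots and at 2.41 with the GC trend subtracted, in a set with a mean of 1.45. The highest set of Cbx7 was then 1.58 ± 0.74, exceeded by 6.02% of the genes of array 2. With all spots its highest set was exceeded by 33.8% of these genes, and with measured spots by 15.7%.

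The promoter window of Cbx7 is shown with its pair of probes in capitals, the upstream one at 0.24 and the one at 2.89 nearer the start.
Cbx7 chr15:79932597-79932896, GRCm38.p6, minus strand: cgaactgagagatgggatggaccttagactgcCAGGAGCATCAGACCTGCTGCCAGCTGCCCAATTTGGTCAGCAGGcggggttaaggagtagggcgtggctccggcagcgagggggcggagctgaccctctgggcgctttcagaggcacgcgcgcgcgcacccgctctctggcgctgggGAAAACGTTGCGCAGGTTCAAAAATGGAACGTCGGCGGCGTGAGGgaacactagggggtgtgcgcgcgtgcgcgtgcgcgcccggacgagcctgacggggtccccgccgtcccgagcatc

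Cbx8 had the highest single probe of the 10 genes. It stood at 3.00, 4123 bp before the start, between neighbours at 0.07 and 0.22, with an immunoprecipitate signal of 9618 and an input signal of 1228. A probe 989 bp before the start stood at 2.92, with 12829 for the immunoprecipitate and 1732 for the input, and its neighbours stood at 0.03 and 0.88. A further probe at 535 bp before the start stood at 2.08. Probes at 120 bp before and 125 bp after the start stood at 1.15 and 1.41. The probe at 989 bp was the one called, at a set mean of 1.46 ± 1.48 (SD, 3 probes; 119150766 to 119151178) with measured spots, and at 1.41 ± 1.48 after GC subtraction. Its GC content was 51.1%, and with all spots the mean of this set was 1.28, below the bound.

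Above 50% GC the log2 ratio was higher in each richer class on both arrays, over all probes as well as over those of the 10 genes. On array 1 the median over measured probes with a GC content of 60 to 70% was 1.37 for the 10 genes (6 probes) and 0.90 for all probes. Below 40% GC it was -0.23 for the 10 genes (28 probes) and -0.27 for all probes. At 70% or more the order was the other way, at 1.42 for the 10 genes (4 probes) and 1.52 for all probes. On array 2 the medians of measured probes below 40% GC were 0.03 for the 10 genes (19 probes) and -0.01 for all probes, above the -0.07 and -0.19 at 40 to 50%. With all spots, surrogates included, that lowest class stood at -0.09 for the 10 genes and 0.33 for all probes. Measured probes at 60 to 70% had medians of 0.82 for the 10 genes (21 probes) and 0.64 for all probes. At 70% or more they were 2.60 for the 10 genes, over 3 probes, and 1.27 for all probes. Both Jarid2 probes at 2.42 and 2.89 lie in this last class. The part of GC content in the enrichment of Jarid2, Ezh2, Eed, Suz12 and Rnf2 was not tested beyond the subtraction given for each.

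**Figure D3:**
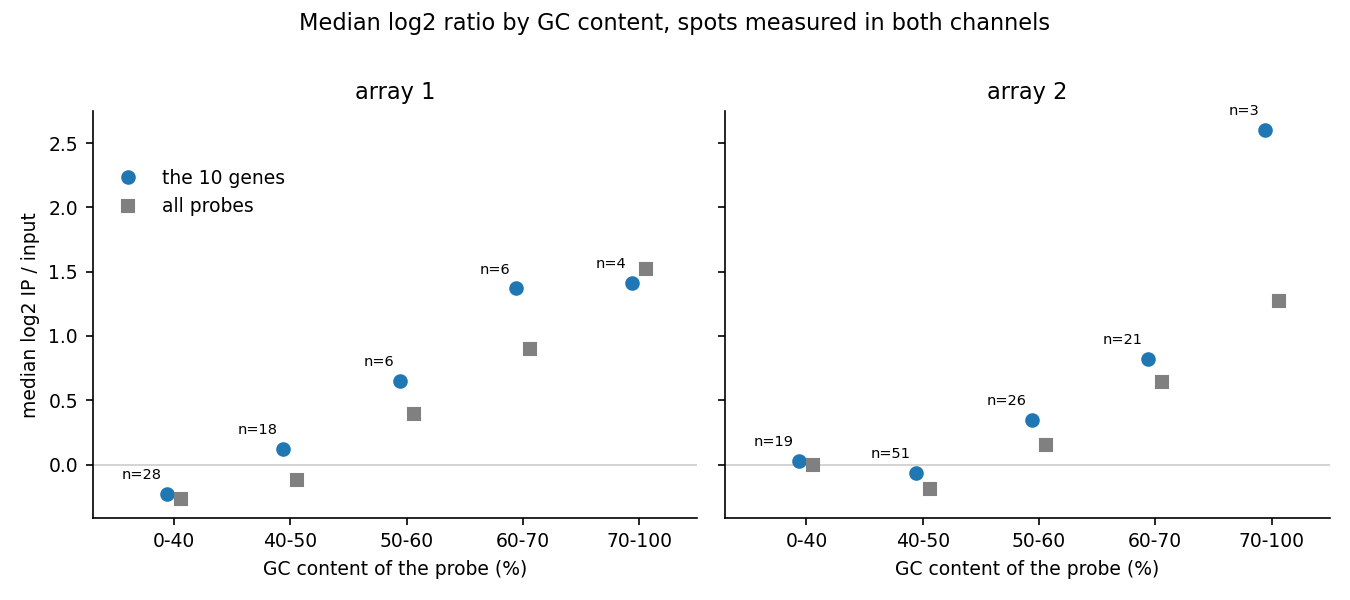
Median log2 ratios of spots measured in both channels are plotted by the GC content of the probe in percent, as circles for the 10 genes with the number of probes and as squares for all probes of the array. Medians at 60 to 70% lie above those under 50% on each array, at 0.90 for all probes of array 1 and 0.64 for all probes of array 2.

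Signal near the start was compared with that of all genes, together with GC content. Within 500 bp of the start, 40 probes of 8 genes had a median of 0.61 and a median GC content of 58.9%, against 0.20 and 46.9% for 10890 genes. On array 1 the medians were 1.24 for Ezh2, Eed and Rnf2 (13 probes) and 0.32 for all genes, and after GC subtraction from measured spots 0.33 and 0.11. On array 2 they were 0.34 for the 5 genes (27 probes) and 0.07 for all genes, and after the subtraction 0.15 and 0.09. Gene by gene, the median within 500 bp of the start was higher than that beyond 1000 bp in all 8 genes but Suz12, although many of the distant probes held surrogates. Suz12 stood at 0.35 near its start and at 0.55 far from it, where 3 of 22 probes were measured. Jarid2 stood at 0.64 near and at -0.15 far (7 and 23 probes), Eed at 1.25 and -0.19 (5 and 23 probes), and Rnf2 at 0.59 and -0.26 (3 and 18 probes). The differences were smaller in Ring1 (0.39 near and 0.08 far), Cbx7 (0.29 and 0.15) and Cbx8 (0.24 and -0.07). In each of the 8 genes the near probes were richer in GC than the far ones. After GC subtraction from measured spots the near medians were 0.46 for Ezh2, 0.79 for Eed, 0.26 for Suz12 and 0.42 for Jarid2. They were -0.52 for Rnf2, -0.28 for Ring1, -0.04 for Cbx7 and 0.02 for Cbx8. Beyond 1000 bp upstream the pooled medians were 0.15 for 7 genes, without Ring1, and 0.02 for all genes. With all spots the highest set was centred within 1000 bp of the start in 4 of 8 genes, against 41.3% of all genes. With measured spots this held for 8 of 8, against 57.4%. With the GC trend subtracted it was again 4 of 8, against 41.8%.

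The Tcf motif was looked for on both strands as 4 words, which do not overlap one another on a strand.
Tcf word a: CTTTGAA
Tcf word b: CTTTGAT
Tcf word c: CTTTGTA
Tcf word d: CTTTGTT
Of the 303 probes of the 10 genes, 20 held it (6.60%, 95% Wilson interval 4.31 to 9.97, counting error only), against 5.56% of all probes of the same lengths. The interval treats probes of the same gene as independent. On array 1 it was 11 of 112 probes (9.82%), against 6.24%, and on array 2 it was 9 of 191 (4.71%), against 5.16%. None of the 11 probes above 2 and none of the 5 called with measured spots held it (0 of 11 and 0 of 5), where 2.88% and 2.75% of all probes of these lengths did. The 20 probes lay in 8 genes, with 4 each in Ezh2, Bmi1 and Cbx2 and 0 in Cbx7 and Cbx8. Probes with the motif had a median of 0.20, and 2 of them exceeded 1. Probes of the 10 genes without it had a median of 0.07, and 47 of 283 exceeded 1. Of the 20 probes with the motif only 9 were measured, with a median of 0.57. Of the 283 without it 173 were measured, with a median of 0.25.

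The measured probes with a motif and a log2 ratio above 0.6 follow, with the motif in capitals. They stood at 0.85 in Ezh2, 246 bp before the start, at 1.39 in Bmi1, and at 1.60 and 0.65 in Cbx2, and none was called.
Ezh2 chr6:47631950-47631994: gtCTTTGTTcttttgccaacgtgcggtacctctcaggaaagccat
Bmi1 chr2:18743374-18743428: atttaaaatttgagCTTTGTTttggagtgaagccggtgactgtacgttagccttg
Cbx2 chr11:119132444-119132488: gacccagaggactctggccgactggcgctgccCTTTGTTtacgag
Cbx2 chr11:119132841-119132885: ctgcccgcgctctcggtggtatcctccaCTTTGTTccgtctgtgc
Among the RefSeq promoter windows of these genes, 2 of 10 held the motif, those of Ezh2 and Suz12, with Jarid2 counted with 2 windows. Of all 32851 windows of this length 16.9% held it.

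The other genes of the Polycomb complexes, with associated genes and opposing ones such as Kdm6a and Kdm6b, were looked at in the same way. Together they are called other Polycomb genes here. Of 38 further genes listed from textbook knowledge of PRC2, PRC1 and associated or opposing factors, 34 were on the arrays. Ezh1, Phc2, Bcorl1 and L3mbtl1 were not analysed here. The list was written with earlier results of these data known, so its counts describe these genes and give no independent support. With all spots 11 of 34 were called (32.4%), against the 13.0% of all genes given above. The counts were 14 (41.2%) for measured spots, against 13.7%, and 8 (23.5%) after GC subtraction, against 13.3%. By group, 1 of 7 PRC2 genes, 7 of 18 PRC1 genes and 3 of 9 associated or opposing genes were called with all spots. In all 3 settings 6 were called (17.6%), and 16 in at least 1 (47.1%), against the 4.71% and 23.7% of all genes. The median highest set mean was 1.47 with all spots, 1.43 for measured spots and 1.08 after GC subtraction. On array 1 the calls numbered 6 of 14 with all spots, against 22.2% of all genes there, 6 of 14 with measured spots, against 16.2%, and 7 of 14 after GC subtraction, against 19.0%. On array 2 they numbered 5 of 20, against 3.59%, 8 of 20, against 11.0%, and 1 of 20, against 7.33%.

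Among PRC2 genes of this list, Rbbp7, which encodes a histone-binding subunit, stood at 3.15 ± 0.41 (SD, 2 probes), and only 0.048% of the genes of array 2 stood higher. It was higher than each of the 10 genes and each other gene of the list, and stood at 2.97 with the GC trend subtracted. Rbbp7 lies on chromosome X, and the median over all its measured probes was 1.22. Bcor and Kdm6a, also on chromosome X, had such medians of 0.98 and 0.92, and Kdm6a was not called. The next highest of the list was Pcgf1, on chromosome 6, at 0.85. Whether a broad offset on chromosome X enters the value of Rbbp7 was not tested. Among PRC1 genes, Rybp, a subunit of variant PRC1, stood at 2.31 ± 0.95, and Phc1, a Polyhomeotic subunit, at 2.28 ± 0.27. Phc1 had 8 called probes with all spots, and its set had a GC content of 37.6%. Kdm2b (Fbxl10 in the array annotation), which binds unmethylated CpG islands, stood at 1.90 ± 1.30, and Pcgf1, a partner of Rnf2, at 1.89 ± 0.52, in a region whose probes the arrays also name for Tlx2. Asxl1, a subunit of the histone H2A deubiquitinase, stood at 1.83 ± 0.34. Rbbp7, Rybp, Phc1, Kdm2b, Pcgf1 and Asxl1 were the 6 genes called in all 3 settings, where any called probe of a gene counted. The highest sets of Rbbp7, Phc1 and Asxl1 lay at the same place with all spots and after GC subtraction. Those of Rybp, Kdm2b and Pcgf1 lay elsewhere after the subtraction, at 1.54, 1.34 and 1.60. For Kdm2b the place moved from 122133990 to 122225557 on chromosome 5.

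Further genes were called in both settings without GC subtraction and lost their call after it. By highest set mean these were Scmh1 (2.08 with all spots and 0.75 with the GC trend subtracted), L3mbtl3 (2.40 and 1.11), Yaf2 (1.77 and 1.24), Bcor (1.76 and 1.37) and Yy1 (1.74 and 1.07). Scmh1 had its highest set at the same probes in both settings, and the others did not. In L3mbtl3 and Yaf2 the highest set with all spots was not itself the called one. The highest sets of L3mbtl3 and Bcor with all spots each held 1 surrogate. E2f6, a repressor of a variant PRC1, stood at 1.67 and was called with measured spots alone, at 1.85.

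**Figure D4:**
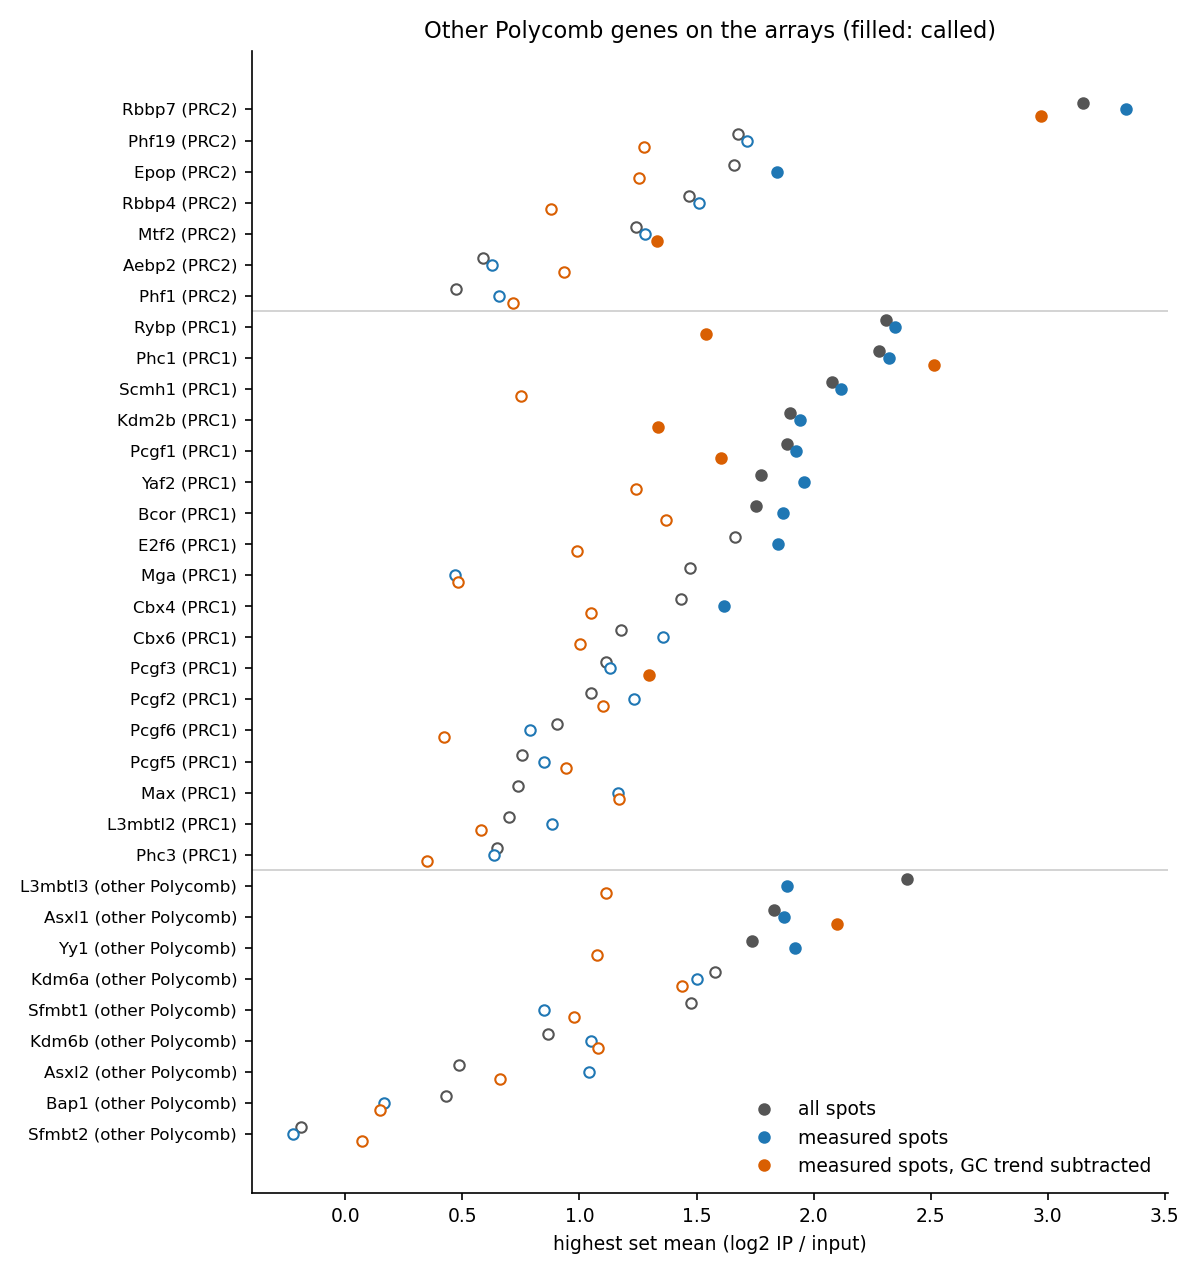
The highest set mean of each of the 34 other Polycomb genes, associated and opposing genes included, is plotted in log2 units for the 3 settings. Genes are ordered within groups, with filled points where the gene was called. Rbbp7 stands apart at 3.15 with all spots, and Scmh1 drops to 0.75 with the GC trend subtracted.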

How the data were processed

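Per the labels, immunoprecipitated and input DNA were labelled with Cy5 and Cy3 and hybridised together to each array. Per the file headers, the scanner images were quantified by the authors in Agilent Feature Extraction 9.1.1.1. The deposited processed signal is a background-subtracted, dye-normalized intensity per channel, with a surrogate value where a signal was not above background, per the file headers. Both files also hold a deposited log10 ratio of the channels and its p-value, computed by the authors' software. The log10 ratio was used as an alternative and the p-value was not used.

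Log2 of processed Cy5 over Cy3 was centred on each array's median, without non-uniform spots (9 on array 1 and 18 on array 2). Scatter without enrichment was estimated from values below the median, for probes and for set means of each size, and was 0.72 for probes of array 1 and 0.78 of array 2. Calls needed a set mean with an upper-tail normal probability below 0.001. In addition, the probe had to be below 0.001 beside a neighbour below 0.1, or 2 probes in the set below 0.005. The probabilities were used as a calling rule alone. Genes named for a called probe counted as called. GC trends were medians in bins of 2%. Gene names were updated with RefSeq symbols (GRCm38.p6), where 14687 names matched a current symbol, 4672 an older one and 725 none. Promoter sequences came from RefSeq, and 9 of the 10 genes had a window.

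The members and the gene list were chosen with earlier results of these data known. Named genes were all 10 members and, of the list, up to 12 called genes by highest set mean. Kdm6a is given beside the called genes on chromosome X. The caller was tested on simulated data. Analyses used Python 3.11.15 with pandas 2.3.3, and R 4.3.3 with limma 3.58.1 for normexp with an offset of 50. In all, 16 alternatives were chosen at the outset and 1 was added after the data were seen.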

Additional observations from a re-analysis of the deposited data

How the results depend on the processing

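Each of 17 other settings was run on the counts of called genes. With all spots 2192 of 16887 genes had been called. Of the 10 genes, 9 were called with normexp background correction (all but Bmi1), when 8417 of all genes and 26 of the other Polycomb genes were called. With the intensity trend subtracted 6 were called, Suz12, Jarid2, Ring1, Cbx2, Cbx7 and Cbx8, beside 7413 of all genes and 23 of the other Polycomb genes. Measured spots gave 2, beside 2233 of 16318 genes, and measured spots after GC subtraction 2, beside 2173. GC subtraction from all spots gave 0, beside 1803 genes in all and 5 other Polycomb genes. A set probability of 0.01 gave 2 (Jarid2 and Rnf2), beside 2805 genes in all. The set probability alone gave 2 (Eed and Jarid2), beside 3201. The other settings, including the added one with a set scale taken from the probe scale, gave 1, Jarid2. Genes called in all then numbered from 1161 to 2611. With a set probability of 0.0001, 7 other Polycomb genes and 1398 genes in all were called, with the scale from all probes' deviations 4 and 1161, and with the deposited log10 ratio 1352 genes in all. The median highest set mean of the 10 genes was 0.75 after GC subtraction from measured spots, and with the median of each gene's probes in its place 0.0403. The share of probes with a motif was 11.6% with the first 6 letters alone and 0% among called probes. Over the signal settings run, the highest set mean ranged from 1.27 to 2.56 for Jarid2 and from 0.21 to 0.67 for Bmi1. No replicate could be left out, because the arrays carry different probes, and no paired analysis was possible because the series holds 1 group. Surrogates at 121 of 303 probes limit what could be seen in regions low in GC.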
